A study of Bos taurus with 40 samples.

Results

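The endometrium is the inner lining of the uterus, and in cattle it has to nourish and signal to an embryo that floats free in the uterine fluid for more than a week before it attaches. After ovulation the corpus luteum, the gland left by the emptied follicle, raises progesterone, and the lining moves out of the growth phase set by estrogen and into a secretory phase. In ruminants prolonged progesterone is known to switch off its own receptor in the epithelium, and that step precedes the rise of many genes for secreted proteins and nutrient carriers. The data described here set the endometrium of the ipsilateral horn, the horn on the side of the corpus luteum, on day 13 against the same horn on day 5, when the corpus luteum is still young.

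The members were chosen by their labels alone: the 5 ipsilateral libraries of day 13 and the 5 ipsilateral libraries of day 5, 10 of the 40 libraries of the series. The study collected endometrium of both horns from synchronised heifers of *Bos taurus* that were killed on 1 of 4 days (5, 7, 13 and 16) and made poly(A)-based, strand-marking RNA-seq libraries from tissue homogenates. No group received a treatment, and all groups share the synchronisation of estrus. Each library of a group carries the tag of another heifer: 5-140, 4-1314, 5-167, 6-203 and 8-275 on day 13, and 8-1350, 1-315, 3-175, 4-184 and 7-300 on day 5. In the labels a day is a day of pregnancy, but in the design text it is a day after estrus, and no source used here tells if the heifers carried embryos. The material sets limits: each group is 5 animals on 1 day, and a homogenate mixes epithelium, stroma, vessels and immune cells, so that fewer cells of a type and less RNA per cell cannot be told apart.

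Day was the main difference between the 10 libraries. The first principal component of the 2000 most variable genes held 50.8% of their variance and placed the day 13 libraries between -59.8 and -30.6 and the day 5 libraries between 40.2 and 55.1. The second component held 12.6%, and the day 5 library 8-1350 lay apart on it, at -58.7. That library held summed smooth muscle markers of 3178 CPM (counts per 1e6 reads of the library), against 551 to 662 CPM in the other day 5 libraries and 328 to 769 CPM on day 13, and results that rest on it are also given without it. Reads in genes came to 27 to 31.9 M per library on day 13 and 28 to 64.4 M on day 5 (M, 1e6 reads).

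Markers of the main cell types moved with the day, and their part in the results below was not tested. Summed CPM of 10 epithelial markers averaged 1533 ± 256 on day 13 and 941 ± 154 on day 5 (SD, n = 5 each; exact two-sided permutation test, p = 0.00794, adjusted over 21 library measures 0.0333). The 7 stromal markers summed to 7621 ± 388 CPM on day 13 and 11455 ± 1794 CPM on day 5 (exact permutation p = 0.00794, adjusted 0.0333). Without the collagen gene *COL1A2* the other 6 stromal markers summed to 4505 to 5490 CPM on day 13 and 4166 to 6568 CPM on day 5, and the groups overlapped. Reads on the mitochondrial genome, kept out of all other values, took 0.49 ± 0.0302% of a library on day 13 and 0.12 ± 0.0331% on day 5 (exact permutation p = 0.00794, adjusted 0.0333). The smallest p that 5 libraries against 5 allow is 0.00794.

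Of 18712 genes tested with edgeR's quasi-likelihood test, 6995 passed a Benjamini-Hochberg adjusted p of 0.05, or 37.4%. On day 13, 3629 were higher (19.4% of those tested) and 3366 were lower (18%). The median change over all genes tested was -0.001 on the log2 scale, while the median was 0.78 among genes called higher and -0.73 among genes called lower. Without library 8-1350, 7078 passed. At least 2-fold changes were found for 2481 of the genes that passed (13.3% of those tested), with 1334 higher (7.13%) and 1147 lower (6.13%), and at least 4-fold changes for 374 and 328 of them. The libraries of the 2 days did not overlap for 4954 genes (26.5%). These shares are the background against which each gene list is read below, and the lists' counts are descriptions without a test of the list. Genes that fall in 2 near-identical entries, or that overlap a gene on the other strand, are uncertain, because no source used here tells how reads shared by genes were counted or if strand was used.

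**Figure D1:**
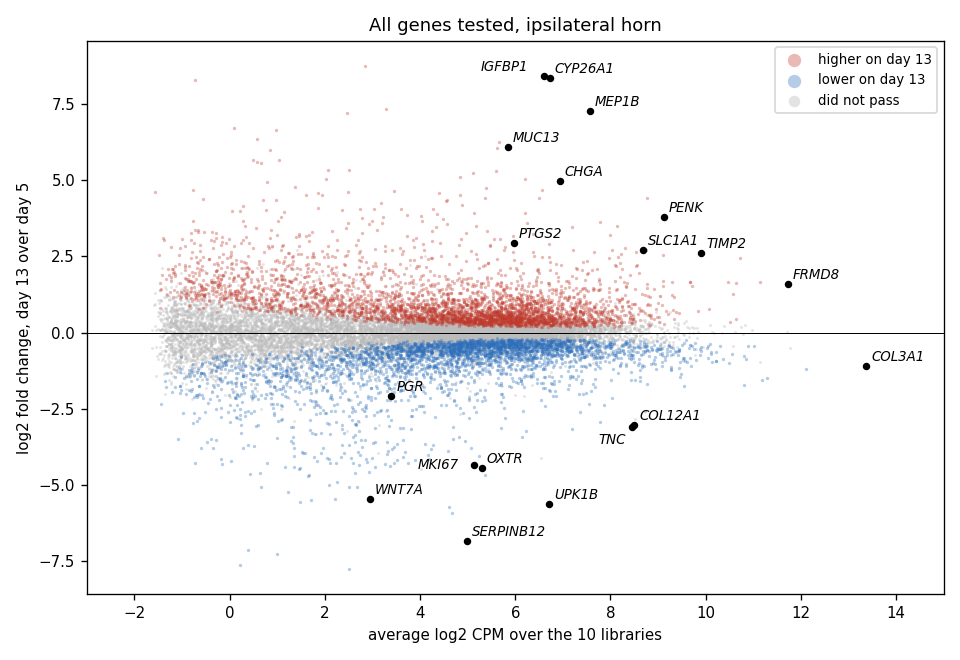
Each point is 1 of the 18712 genes tested, with its average log2 CPM over the 10 libraries on the horizontal axis and its log2 fold change, day 13 over day 5, on the vertical axis. Red genes were higher on day 13 and blue genes lower at an adjusted p below 0.05. The labelled genes reach from 8.42 for *IGFBP1* to -6.83 for *SERPINB12*, while the most abundant of them, *COL3A1*, lies at -1.11.

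The progesterone receptor and estrogen receptor alpha fell. *PGR*, the progesterone receptor, stood at 3.14, 3.18, 5.18, 3.6 and 4.76 CPM in the day 13 libraries, against 17.3, 19.7, 15.9, 17.8 and 12.7 CPM on day 5. The groups did not overlap, and the log2 fold change was -2.08 ± 0.19 (SE; adjusted p = 3.75e-05). *ESR1*, estrogen receptor alpha, stood at 8.82, 8.44, 12.4, 9.57 and 14.6 CPM on day 13, against 25.8, 24.7, 21.2, 23.2 and 15.4 CPM on day 5. Its lowest day 5 library, 7-300, lay just above the highest day 13 library, and the change was -1.05 ± 0.19 (adjusted p = 0.00151). *GREB1*, an estrogen-responsive cofactor of the estrogen receptor, fell by 2.10 on the log2 scale with no overlap, at 10.1 to 33.2 CPM on day 13 and 53.7 to 103 CPM on day 5. *ESR2*, estrogen receptor beta, rose instead, at 64.5 to 98.2 CPM on day 13 and 35.4 to 75.2 CPM on day 5 (log2 fold change 0.66, adjusted p = 0.0172). That rise missed the threshold when day 13 library 5-140 was left out (0.57, adjusted p = 0.0535).

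Membrane proteins that bind progesterone moved in both directions. *PAQR5*, which encodes membrane progestin receptor gamma, rose by 1.80 on the log2 scale (2.04 to 4.24 CPM on day 13, 0.42 to 1.75 CPM on day 5). *PAQR7*, which encodes membrane progestin receptor alpha, fell by 1.06, at 3.9 to 8.78 CPM on day 13 and 10 to 22 CPM on day 5. *PGRMC2*, a progesterone receptor membrane component, rose by 0.53, at 99 to 136 CPM on day 13 and 67.6 to 101 CPM on day 5. Its relative *PGRMC1* had a log2 fold change of 0.36 that did not pass (adjusted p = 0.0796; 0.48 and 0.00849 without day 13 library 5-167). Over the list of 23 steroid receptors and co-chaperones tested, 6 were higher and 7 lower, with a median of 0.15. With the share of small RNA reads (microRNA and tRNA genes) as a covariate, which differs between the days and cannot be told apart from day, 5 were higher and 2 lower. *PGR* kept its call there (adjusted p = 0.00221), while *ESR1* (adjusted p = 0.0741) and *GREB1* (adjusted p = 0.134) missed the threshold, as did *ESR2*, *PAQR5* and *PAQR7*.

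The oxytocin receptor was among the steepest falls. Oxytocin acting on this receptor drives the pulses of prostaglandin F2 alpha that end the corpus luteum late in the cycle. *OXTR* stood at 1, 1.06, 8.01, 5.06 and 2.03 CPM on day 13, against 61.6, 40.6, 143, 55.7 and 67.7 CPM on day 5 (log2 fold change -4.44 ± 0.61, adjusted p = 0.000361). All 5 day 13 libraries lay far below the lowest day 5 library, and day 5 library 3-175 lay well above the other 4.

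Some genes that make or break down prostaglandins rose over the same interval. *PTGS2*, the inducible cyclooxygenase that starts prostaglandin synthesis, stood at 130, 148, 69.5, 110 and 90.9 CPM on day 13, against 9.68, 10, 8.2, 25.1 and 18.8 CPM on day 5. The groups were well apart, and the log2 fold change was 2.93 ± 0.34 (adjusted p = 0.000145). *PLA2G4A*, the cytosolic phospholipase A2 that frees arachidonic acid from membranes, rose by 1.33 on the log2 scale, at 82.2 to 152 CPM on day 13 and 36.6 to 58 CPM on day 5. *HPGD*, the enzyme that inactivates prostaglandins, rose by 1.65, at 475 to 1609 CPM on day 13 and 166 to 367 CPM on day 5. *ALOX12*, an arachidonate lipoxygenase, rose by 2.65, at 45.6 to 190 CPM on day 13 and 7.77 to 25.7 CPM on day 5. *PTGFRN*, a membrane protein that inhibits the prostaglandin F2 receptor, fell by 0.60. Of the 24 genes for oxytocin and prostaglandin signalling tested, 5 were higher and 4 lower, with a median of -0.09. The share called, 37.5%, was next to the 37.4% over all genes, and *PTGES2*, a prostaglandin E synthase, was among the lower genes.

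The call for *PTGFR*, the prostaglandin F2 alpha receptor, depended on single libraries. It stood at 0 to 0.878 CPM on day 13 and at 0.524, 0.862, 1.22 and 3.19 CPM in 4 libraries of day 5, with 52.2 CPM in the library with high smooth muscle markers, 8-1350. The log2 fold change was -4.59 ± 1.44 (adjusted p = 0.0277) with it and -1.62 (adjusted p = 0.159) without it. It also missed the threshold without day 13 library 5-140, 4-1314 or 8-275.

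**Figure D2:**
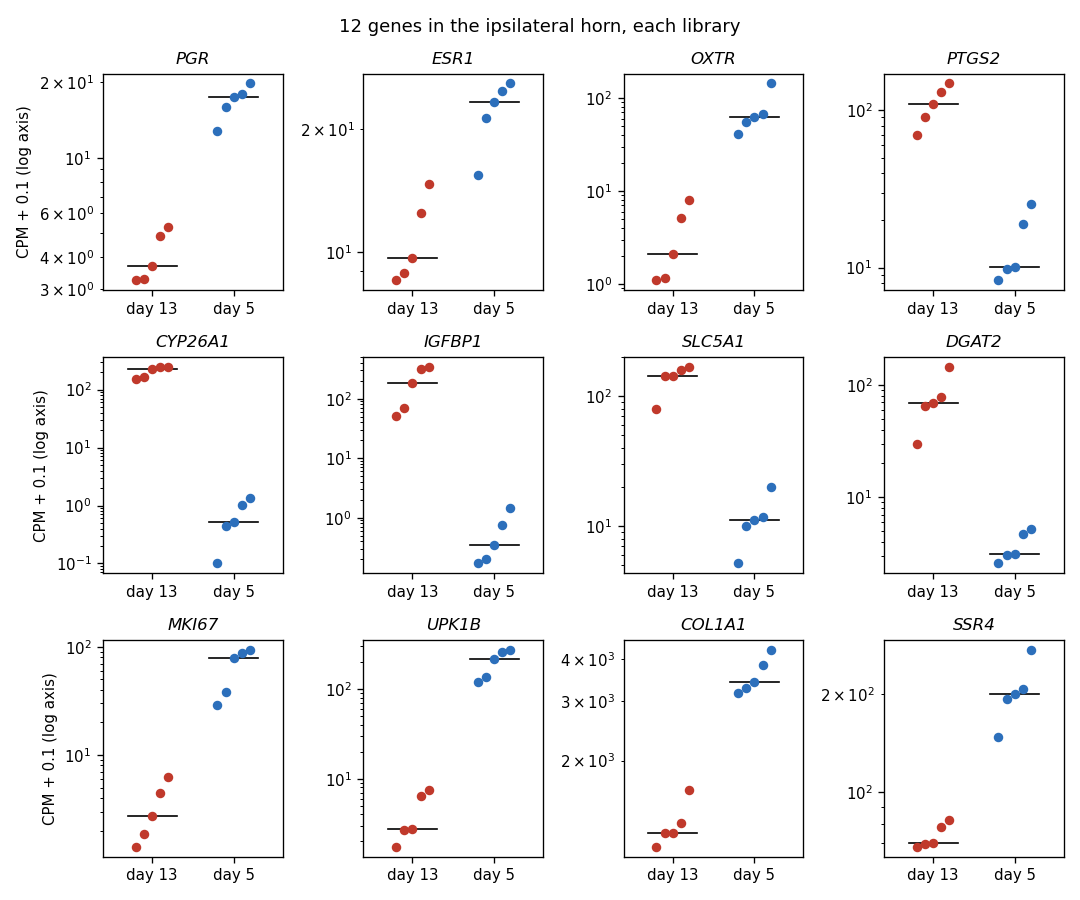
CPM plus 0.1 on a log axis for 12 genes in each ipsilateral library, with day 13 in red on the left and day 5 in blue on the right of each panel; the bar is the median of 5 libraries. In each of the 12 panels the lowest library of the higher day lies above the highest library of the lower day, as for *PTGS2* (69.5 CPM and above on day 13, 25.1 CPM and below on day 5).

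The steepest rises were in genes with low levels on day 5. *CYP26A1*, the enzyme that degrades retinoic acid, stood at 225, 242, 154, 248 and 166 CPM on day 13, against 0, 0.932, 1.24, 0.349 and 0.414 CPM on day 5 (log2 fold change 8.34 ± 0.59, adjusted p = 1.61e-05). *IGFBP1*, an insulin-like growth factor binding protein secreted by the bovine uterine epithelium, stood at 315, 346, 52.1, 68.7 and 182 CPM on day 13, against 0.105, 0.64, 1.36, 0.0697 and 0.241 CPM on day 5. Day 13 libraries 5-167 and 6-203 were the low ones of their group and still lay far above day 5 (8.42 ± 0.86, adjusted p = 7.23e-05; 9.45 without day 5 library 3-175). *MEP1B*, the beta subunit of the metalloprotease meprin, rose by 7.25, with 170 to 673 CPM on day 13 and 1.74 to 4.3 CPM on day 5. *SLC39A2*, a zinc transporter of the ZIP family, rose by 6.25, with 19.6 to 173 CPM on day 13 and 0.823 to 1.84 CPM on day 5.

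Other steep rises were in a mucin, a lysozyme and a granule protein. *MUC13*, a membrane mucin, rose by 6.07 on the log2 scale and *LYZ1*, a lysozyme of a gene family with several copies in cattle, by 6.05. *MUC13* stood at 64 to 150 CPM on day 13 and 0.552 to 2.61 CPM on day 5. *LYZ1* stood at 29 to 142 CPM on day 13 and 0.62 to 2.21 CPM on day 5. *CHGA*, chromogranin A of neuroendocrine granules, rose by 4.98, with 81.8 to 401 CPM on day 13 and 3.26 to 11.3 CPM on day 5. *LY6G6C* rose by 5.22, *MYL3*, a myosin light chain, by 5.33, *COL22A1*, a collagen of tissue junctions, by 5.04, and *BRINP2* by 4.59. Of these, *COL22A1* moved by more than 1.5-fold with 1 library, to 4.42 without day 13 library 4-1314, which held 337 CPM against 73.6 to 109 CPM in the other 4.

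Other genes had the largest rises in CPM rather than in fold. *TIMP2*, a metalloprotease inhibitor, rose by 2.60 on the log2 scale to 1170 to 2143 CPM on day 13, against 186 to 338 CPM on day 5. *SEPP1*, selenoprotein P, a secreted selenium carrier, rose by 1.67, with 2200 to 4404 CPM on day 13 and 742 to 1297 CPM on day 5. *TXNIP*, an inhibitor of thioredoxin that responds to glucose, rose by 1.63, with 1646 to 2891 CPM on day 13 and 578 to 906 CPM on day 5. *FRMD8* rose by 1.59, with 2908 to 6625 CPM on day 13 and 1201 to 1997 CPM on day 5. *PENK*, the precursor of enkephalin peptides, rose by 3.80, with 415 to 2073 CPM on day 13 and 15.3 to 197 CPM on day 5. Its change was 4.60 without day 5 library 1-315, the highest of day 5.

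The list of secreted proteins of uterine fluid held more risers than the background share. Of 29 tested, 13 were higher and 7 lower, with a median of 0.56, beside 19.4% higher and 18% lower over all genes. Its largest rises were *IGFBP1* and *MEP1B*, given above. *SERPINA14*, uterine serpin, a major protein of ruminant uterine fluid, rose by 3.65 on the log2 scale, with 44.1, 63.8, 5.39, 13.4 and 23.6 CPM on day 13, against 2.2, 4.69, 0.509, 3.9 and 0.689 CPM on day 5. The groups did not overlap, although day 13 library 5-167 came close to day 5 library 1-315. *SSLP1*, a secreted seminal vesicle Ly-6 protein, rose by 3.66, with 8.4 to 22.4 CPM on day 13 and 0.446 to 1.78 CPM on day 5. *GRP*, gastrin-releasing peptide, a product of the uterine glands, rose by 1.27, with 1161 to 2518 CPM on day 13 and 573 to 1172 CPM on day 5.

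Several secreted or surface proteins of the list fell. *ANPEP*, aminopeptidase N, fell by 2.60 on the log2 scale, with 31 to 64.2 CPM on day 13 and 112 to 447 CPM on day 5. *LTF*, lactoferrin, an iron-binding defence protein, fell by 2.09, with 12.7 to 94.1 CPM on day 13 and 50.6 to 325 CPM on day 5. *LGALS1*, a galectin of stroma, fell by 1.43 with no overlap, at 66 to 90.9 CPM on day 13 and 177 to 229 CPM on day 5. *TDGF1*, an EGF-CFC coreceptor, and *LRP2*, a large endocytic receptor, rose by 1.65 and 1.64. Both of these calls were lost when single libraries were left out: *TDGF1* without 5-140, 8-275 or 1-315 (adjusted p up to 0.0589) and *LRP2* without 5-140, 4-1314, 8-275, 8-1350 or 7-300 (up to 0.0744).

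Retinoid genes moved in both directions. Retinol reaches cells on retinol-binding protein, is oxidised to retinoic acid and is cleared by CYP26 enzymes. *RBP4*, the plasma retinol carrier and a protein of uterine fluid, rose by 1.29 on the log2 scale, with 155 to 265 CPM on day 13 and 77.2 to 117 CPM on day 5. *ALDH1A2*, which makes retinoic acid, fell by 2.20, with 6.29 to 21.8 CPM on day 13 and 37.5 to 96.4 CPM on day 5. *CRABP2*, which carries retinoic acid to the nucleus, fell by 1.36, and *RARRES1*, a gene named for its response to retinoic acid receptors, by 2.16. *STRA6*, the retinol uptake receptor, had a log2 fold change of -0.94 that did not pass (adjusted p = 0.0629; -1.25 and 0.0166 without day 13 library 5-167). With *CYP26A1*, *RBP4* and 2 others higher, 4 of the 24 genes tested were higher and 6 lower, with a median of -0.13. The share called was 41.7%, beside 37.4% over all genes, and *ALDH1A1*, *ALDH1A3* and *CYP26B1* were not among the called genes. The count of higher genes was 2 without any of 5-140, 3-175, 4-184 and 8-275, and 6 without 8-1350.

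Carriers for sugars moved in both directions. *SLC5A1*, the sodium-glucose cotransporter SGLT1 of apical membranes, stood at 159, 142, 80.2, 169 and 143 CPM on day 13, against 11.6, 9.93, 5.05, 11.1 and 19.9 CPM on day 5 (log2 fold change 3.59 ± 0.34, adjusted p = 5.17e-05). Its relative *SLC5A11*, a sodium-coupled inositol carrier, rose by 5.64 at low levels, with 577 reads in all on day 13 and 16 on day 5 (6.27 without day 5 library 3-175, which held the most of the 16). *SLC2A1*, the facilitative glucose carrier GLUT1, rose by 1.08, with 90.6 to 186 CPM on day 13 and 50.5 to 81.1 CPM on day 5. *SLC2A3*, the high-affinity carrier GLUT3, fell by 0.92, with 23.3 to 34.6 CPM on day 13 and 35.5 to 105 CPM on day 5. *SLC2A5*, the fructose carrier GLUT5, was listed in 2 entries that may share reads, and these fell by 5.05 and 5.46 (the first by 5.70 without day 13 library 5-140). In glycogen metabolism *PYGB*, glycogen phosphorylase, rose by 1.29 with no overlap (88.8 to 105 CPM on day 13, 31.2 to 42.3 CPM on day 5). *FBP1*, fructose bisphosphatase of glucose synthesis, fell by 2.17. Of the 25 genes tested, 7 were higher and 6 lower (52% called, beside 37.4% over all genes), with a median of -0.01.

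Amino acid carriers also moved in both directions. *SLC1A1*, a sodium-coupled carrier of glutamate and aspartate, stood at 950, 799, 496, 807 and 469 CPM on day 13, against 105, 140, 108, 93.8 and 97.7 CPM on day 5 (log2 fold change 2.69 ± 0.22, adjusted p = 2.73e-05). The lowest day 13 library exceeded the highest day 5 library by a wide margin. *SLC36A2*, a proton-coupled carrier of small amino acids, rose by 4.63, *SLC38A7*, a glutamine carrier of lysosomes, by 2.04, and *SLC7A7*, a subunit of a cationic amino acid exchanger, by 1.04. *SLC1A5*, the glutamine exchanger used by many dividing cells, fell by 1.98, with 4.69 to 8.97 CPM on day 13 and 17.8 to 38.2 CPM on day 5. *SLC6A6*, the taurine carrier, fell by 1.20. In all, 6 of 31 genes were higher and 6 lower, or 38.7% called, near the 37.4% over all genes. With the small RNA covariate the counts were 4 higher and 3 lower. *SLC22A16*, a carnitine carrier outside this list, rose by 4.57 (3.91 without day 13 library 6-203, the highest).

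Some genes for ion transport and fluid secretion rose and others fell. *CFTR*, the chloride channel of fluid secretion, stood at 157, 165, 69.7, 141 and 153 CPM on day 13, against 5.33, 10.5, 15.6, 6.97 and 6.07 CPM on day 5 (log2 fold change 3.93 ± 0.35, adjusted p = 3.75e-05). Day 13 library 5-167 was low in its group and lay above all of day 5. *ATP1B2*, a beta subunit of the sodium pump, rose by 2.22, with 517 to 718 CPM on day 13 and 50.1 to 191 CPM on day 5. *FXYD4*, a regulator of that pump, rose by 2.17 and *SLC4A11*, a relative of the bicarbonate transporters, by 2.25. *SLC4A4*, a sodium bicarbonate cotransporter, fell by 1.52, and *AQP1*, a water channel of vessels, did not pass (0.34, adjusted p = 0.365). Lower as well were *ANO1*, *CA12*, *SLC9A3*, *SLC26A2*, *SLC4A7* and *ATP1B3*. Of 34 genes tested, 9 were higher and 7 lower (47.1% called), with a median of -0.03. At least 2-fold changes were found for 6 of the higher and 7 of the lower genes. With the small RNA covariate 4 were higher and 3 lower.

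Genes of vitamin D and calcium handling moved in both directions. *VDR*, the vitamin D receptor, rose by 2.41 on the log2 scale, with 16.2 to 43.7 CPM on day 13 and 4.16 to 7.08 CPM on day 5. *CYP27A1*, a sterol and vitamin D hydroxylase, rose by 1.64, with 343 to 607 CPM on day 13 and 121 to 176 CPM on day 5. *TRPV6*, the apical calcium channel, fell by 2.51, with 1.09 to 2.4 CPM on day 13 and 6.52 to 18.3 CPM on day 5. *S100G*, the calcium buffer calbindin-D9k, had a log2 fold change of 0.62 that did not pass (adjusted p = 0.234; 233 to 837 CPM on day 13 and 185 to 496 CPM on day 5). *CALB1*, calbindin-D28k, passed at 2.67 (adjusted p = 0.0314) and missed the threshold without 5-140, 4-1314, 3-175 or 7-300 (adjusted p up to 0.0791). Of 19 genes tested, 3 were higher and 4 lower, a share of 36.8% and near that over all genes.

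Lipid genes moved in both directions. *DGAT2*, which adds the last fatty acid to a triglyceride, stood at 69.6, 65, 78.9, 146 and 29.7 CPM on day 13, against 2.96, 5.12, 2.46, 3 and 4.58 CPM on day 5 (log2 fold change 4.42 ± 0.42, adjusted p = 4.66e-05). *PNPLA2*, the lipase that opens triglyceride breakdown, rose by 1.31 and *ACACA*, the enzyme that commits carbon to fatty acid synthesis, by 0.93. The desaturases *SCD* and *FADS1* fell by 1.47 and 1.00 and the acyl-CoA synthetase *ACSL4* by 1.00. *SCD* stood at 60.5 to 88.8 CPM on day 13 and 113 to 296 CPM on day 5. Of 36 genes tested, 6 were higher and 7 lower, with a median of -0.01. The share called was 36.1%, near the 37.4% over all genes, and with the small RNA covariate 6 were higher and 1 lower. *SCD*, *FADS1* and *ACSL4* missed the threshold in that fit.

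Cholesterol genes showed smaller changes. Early enzymes of the pathway fell: *ACAT2*, which joins acetyl-CoA units, by 1.22 on the log2 scale, *MVK*, mevalonate kinase, by 0.96, and *MVD*, mevalonate decarboxylase, by 0.72. *SC5D*, a late sterol desaturase, rose by 0.49 and *ABCA1*, the cholesterol exporter, by 0.69, while *HMGCS1*, which makes HMG-CoA, did not pass (0.18, adjusted p = 0.458). Of 28 tested, 4 were higher and 5 lower (32.1% called), and 3 and 1 with the small RNA covariate. *AKR1C4*, an aldo-keto reductase, rose by 4.52, with 34.5 to 75.6 CPM on day 13 and 0.479 to 5.34 CPM on day 5.

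The steepest falls included a uroplakin, a serpin, a tensin and a mucin. *UPK1B*, a uroplakin of the apical membrane, stood at 2.66, 7.31, 6.33, 2.6 and 1.65 CPM on day 13, against 138, 119, 258, 215 and 274 CPM on day 5 (log2 fold change -5.63 ± 0.46, adjusted p = 2.64e-05). *SERPINB12*, an intracellular protease inhibitor, fell by 6.83, with 81 reads in all on day 13 and 11569 on day 5. *TNS4*, a tensin of focal adhesions, fell by 7.75, with 7 reads on day 13 and 2150 on day 5, and its fitted change was -9.07 without day 13 library 5-167, which held most of those reads. *MUC4*, a membrane mucin, fell by 5.00, with 0.121 to 0.338 CPM on day 13 and 3.09 to 14.6 CPM on day 5. *PLA2G4D*, a phospholipase A2 known from skin, fell by 4.66, with 1.5 to 5.97 CPM on day 13 and 17.9 to 153 CPM on day 5.

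Single libraries moved the size of 2 further falls without ending the call. *LRG1*, a leucine-rich glycoprotein, fell by 5.07 on the log2 scale, and by 6.86 without day 13 library 8-275, which held 1.38 CPM against 0.0303 to 0.175 CPM in the other 4. *SOSTDC1*, a secreted antagonist of WNT and BMP ligands, fell by 4.40, by 5.46 without day 13 library 8-275 and by 3.60 without day 5 library 8-1350.

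*WNT7A*, a ligand of the luminal epithelium that mice need for uterine patterning and gland formation, was the extreme of the WNT list. It stood at 0.13, 0.151, 0.805, 0.575 and 0 CPM on day 13, against 8.89, 7.42, 22.9, 13.9 and 20.3 CPM on day 5 (log2 fold change -5.45 ± 0.70, adjusted p = 0.000239). Among other ligands, *WNT6* fell by 2.35, with 1.26 to 2.48 CPM on day 13 and 4.33 to 21.2 CPM on day 5. *WNT11* rose by 0.97, with 24.7 to 35.9 CPM on day 13 and 8.56 to 19 CPM on day 5, and *WNT5A* did not pass (-0.25, adjusted p = 0.535). The receptor *FZD5* rose by 1.06 and *LGR4*, the receptor of R-spondins, by 1.03, while the coreceptor *LRP6* did not pass (0.14, adjusted p = 0.579). Of the secreted inhibitors, *DKK1* rose by 1.84, with 17.2 to 58.6 CPM on day 13 and 2.89 to 15.1 CPM on day 5, and *NOTUM* fell by 1.86. The list counted 6 of 49 genes higher and 14 lower (40.8% called, beside 37.4% over all genes), with a median of -0.25. The 14 included *AXIN2*, *NKD1* and *ZNRF3*, known feedback targets of the pathway. Also on the list, *RNF43*, *LGR5*, *LEF1* and *TCF7* did not pass.

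Most genes of cell division fell. Of 32 genes for mitosis and the cell cycle tested, 27 were lower and 0 higher, with a median of -2.87, beside 18% lower over all genes. *MKI67*, the antigen Ki-67 of cycling cells, stood at 1.75, 1.32, 6.12, 2.63 and 4.32 CPM on day 13, against 28.8, 38.1, 93.6, 87.4 and 78.4 CPM on day 5 (log2 fold change -4.35 ± 0.49, adjusted p = 0.000114). Within each day the libraries differed several-fold, yet the groups did not come near each other. The other falls spanned the machinery of the spindle and its checkpoint: *CDC20*, the activator of the anaphase-promoting complex, fell by 4.26, *KIF11*, the motor that separates spindle poles, by 4.28, and *TTK*, a checkpoint kinase, by 4.31. Outside the list, *ASPM* at the spindle poles fell by 4.36, *DLGAP5* on spindle microtubules by 4.56, *HJURP*, which loads the centromere histone, by 4.34. *DEPDC1* fell by 4.90. The count of 27 lower was the same with each of the 10 libraries left out, and 25 were lower with the share of small RNA reads as a covariate.

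A pair of well-known mitotic genes did not share that fall. *CCNB1*, cyclin B1, stood at 355, 196, 143, 182 and 253 CPM on day 13, against 247, 190, 153, 216 and 200 CPM on day 5 (log2 fold change 0.16, adjusted p = 0.623). *PLK1*, polo-like kinase 1, stood at 20.2 to 36.9 CPM on day 13 and 22.8 to 30.9 CPM on day 5 (0.09, adjusted p = 0.714). In both genes the days overlapped throughout, and both estimates turned negative without day 13 library 5-140.

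DNA replication genes fell less steeply and not all together. Of 30 tested, 15 were lower and 5 higher, with a median of -0.46. The licensing factors *CDT1*, *CDC6* and *ORC1*, which load the replicative helicase at origins, fell by 2.68, 2.43 and 2.16 on the log2 scale, and *POLE*, the catalytic subunit of polymerase epsilon, by 2.07. *POLE* stood at 2.94 to 6.38 CPM on day 13 and 15.8 to 30.6 CPM on day 5. The 5 higher genes included *RPA2*, a subunit of the single-strand binding complex, by 0.74, *PRIM1*, a primase subunit, by 0.54, and *LIG1*, DNA ligase 1, by 0.52. *PCNA*, the sliding clamp, and *FEN1*, the flap endonuclease, were among the 15 lower. With the small RNA covariate 10 were lower and 2 higher.

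**Figure D3:**
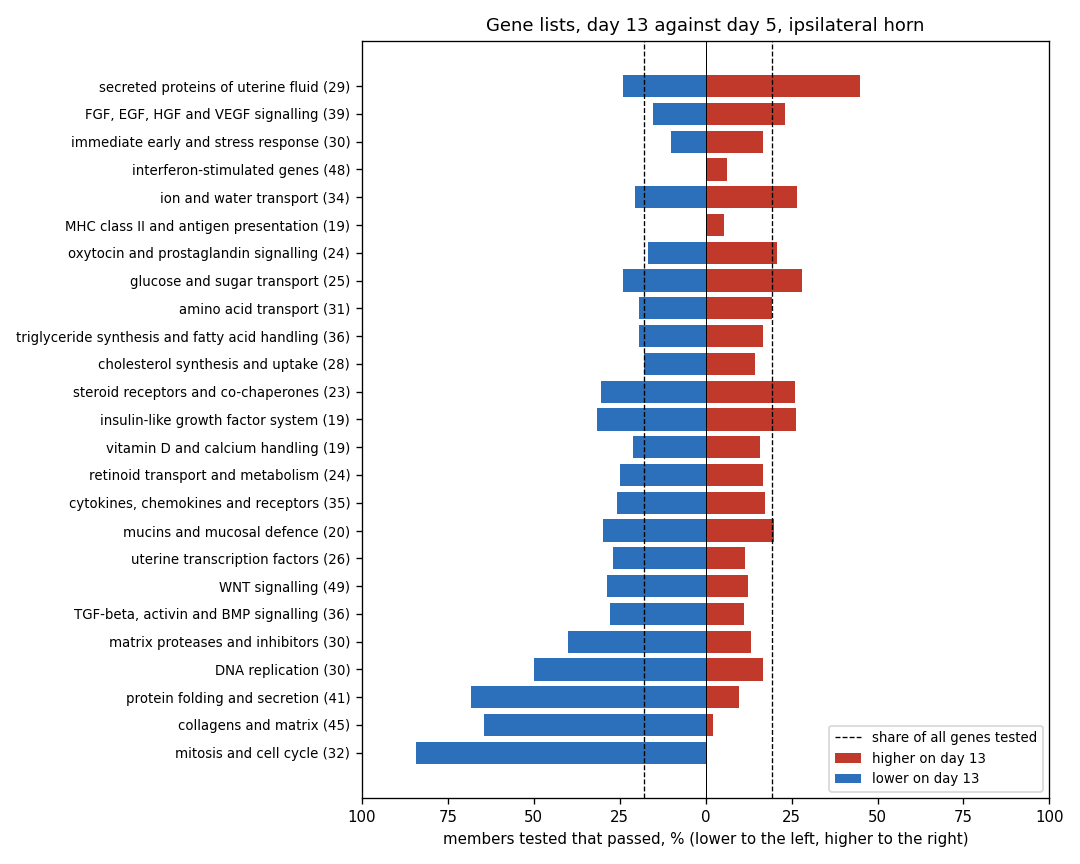
Bars give the percent of tested members of each of 25 gene lists that were higher (red, to the right) or lower (blue, to the left) on day 13 than on day 5; the number tested stands in brackets and the dashed lines mark the shares over all genes, 19.4% and 18%. Mitosis, collagens and protein folding reach farthest to the lower side, and secreted proteins of uterine fluid farthest to the higher side.

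Most genes of the collagen and matrix list fell. Of 45 genes for collagens and matrix tested, 29 were lower and 1 higher, with a median of -1.05, and 31 were lower without library 8-1350. *COL1A1*, a chain of type I collagen, stood at 1303, 1111, 1639, 1222 and 1218 CPM on day 13, against 3164, 4258, 3274, 3851 and 3419 CPM on day 5 (log2 fold change -1.48 ± 0.14, adjusted p = 4.37e-05). *COL3A1*, the chain of type III collagen, fell by 1.11, with 5399 to 8984 CPM on day 13 and 10016 to 16122 CPM on day 5. *COL1A2* fell by 1.18, *COL6A1* by 0.87 and *COL6A3* by 1.73, and *SPARC*, a collagen-binding matricellular protein, fell by 1.55. The summed level of the 45 genes was 21255 to 29719 CPM on day 13 and 44132 to 52655 CPM on day 5.

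The steepest matrix falls were in genes of remodelling tissue. *COL8A1*, a short-chain collagen, fell by 3.49 on the log2 scale, with 2.57 to 5.06 CPM on day 13 and 14.4 to 109 CPM on day 5. *TNC*, tenascin C, fell by 3.09, with 10.1, 29.6, 196, 73.2 and 58.2 CPM on day 13, against 676, 570, 820, 440 and 570 CPM on day 5, and by 3.85 without day 13 library 5-167. *COL12A1*, a fibril-associated collagen, fell by 3.03, and by 2.42 without day 5 library 8-1350, which held 1524 CPM against 298 to 575 CPM in the other 4. *LOXL4*, a cross-linking oxidase, fell by 2.57. The proteoglycan *LUM* did not pass (-0.40, adjusted p = 0.289), and of the 7 stromal markers only *VIM* (-0.83) and *COL1A2* were lower, while *PDGFRA*, *DCN*, *LUM*, *THY1* and *HAND2* did not pass. *LAMA2*, a laminin chain, was the 1 gene higher (0.62, adjusted p = 0.0336), and the call was lost without 5-140, 4-1314, 8-275, 8-1350 or 4-184 (adjusted p up to 0.0796).

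Among proteases and their inhibitors more genes fell than rose. *MMP28*, the metalloprotease epilysin, fell by 1.88 on the log2 scale, and the aggrecanase *ADAMTS4* and its relative *ADAMTS15* by 1.77 and 1.59. *ADAMTS4* stood at 3.79 to 12.9 CPM on day 13 and 22 to 31.4 CPM on day 5. The epithelial membrane protease *ST14*, matriptase, rose by 0.96, and *SPINT2*, an inhibitor of that protease class, by 0.89, with 514 to 680 CPM on day 13 and 282 to 342 CPM on day 5. Of 30 genes tested, 4 were higher and 12 lower (53.3% called, beside 37.4% over all genes), with a median of -0.68.

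Genes for folding and export of proteins in the endoplasmic reticulum fell by modest amounts. Of 41 tested, 28 were lower and 4 higher, with a median of -0.59, and 3 of the 28 fell at least 2-fold. *SSR4*, a subunit of the translocon-associated complex, stood at 78.1, 69, 67.9, 69.7 and 82 CPM on day 13, against 273, 193, 207, 200 and 147 CPM on day 5 (log2 fold change -1.48 ± 0.14, adjusted p = 5.02e-05). *CRELD2*, *SDF2L1* and *MANF*, which respond to unfolded protein, fell by 1.42, 1.26 and 0.93. *SEC11C*, a signal peptidase subunit, rose by 1.46 and *DDIT3*, the stress factor CHOP, by 0.64. With each library left out, 23 to 28 members were lower (23 without 8-1350), but 11 were lower with the share of small RNA reads as a covariate. That share was itself higher on day 13 (microRNA genes took 0.0124% of reads on day 13 and 0.0093% on day 5, adjusted p = 0.0333 by exact permutation), so day and share cannot be told apart in that fit.

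Growth factor systems changed at ligand, carrier and receptor. *IGF1*, insulin-like growth factor 1, fell by 1.04 on the log2 scale (adjusted p = 0.024; up to 0.0589 when libraries 4-1314, 8-275 or 4-184 were left out singly). *GHR*, the growth hormone receptor, fell by 1.53, with 29.9 to 66.3 CPM on day 13 and 84.9 to 152 CPM on day 5. *IGFBP3*, the main carrier of blood, fell by 1.19 while *IGFBP1* rose as above. *PAPPA2*, a protease that cuts binding proteins, rose by 2.55 and *STC2*, stanniocalcin 2, which inhibits proteases of this kind, by 1.82. *IGF2* did not pass (-0.20, adjusted p = 0.603). Of 19 genes tested, 5 were higher and 6 lower (57.9% called, beside 37.4% over all genes), with a median of -0.03. Among receptors, *IGF1R* and *INSR* were higher, and *IGF2R* was lower, as was *GHR*.

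*IGFBP5* showed how much the library 8-1350 can weigh. It stood at 41.8 to 136 CPM on day 13 and at 28.1 to 98.7 CPM in 4 day 5 libraries, with 2925 CPM in 8-1350. The log2 fold change was -2.82 (adjusted p = 0.0922) with that library and 0.58 (adjusted p = 0.276) without it.

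TGF-beta, activin and BMP genes were called at about the share over all genes. *BMP7*, a BMP ligand, fell by 2.73 on the log2 scale, with 0.875 to 3.31 CPM on day 13 and 8.06 to 22 CPM on day 5. *ID1*, a direct target of BMP signalling, fell by 1.36, with 18.4 to 34.6 CPM on day 13 and 46.8 to 88.6 CPM on day 5. *FSTL1*, a secreted follistatin relative, fell by 1.17, and *TGFBR3*, betaglycan, did not pass (0.13, adjusted p = 0.327). Of 36 genes for TGF-beta, activin and BMP signalling tested, 4 were higher and 10 lower, with a median of 0.03. The share called, 38.9%, was near the 37.4% over all genes, and *ID2* and *ID3* were not among the called genes. The higher genes were 2 without day 13 library 5-140, and with the small RNA covariate 0 were higher and 5 lower, *BMP7* no longer among them.

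A pair of receptors of the EGF family rose. *ERBB3*, the partner of ERBB2 in neuregulin signalling, stood at 703, 657, 374, 402 and 488 CPM on day 13, against 117, 131, 147, 175 and 132 CPM on day 5 (log2 fold change 1.89 ± 0.20, adjusted p = 7.9e-05). *ERBB2* rose by 1.27 with no overlap, at 171 to 287 CPM on day 13 and 79.3 to 99.9 CPM on day 5. *PDGFA*, a platelet-derived growth factor chain, rose by 1.57, with 53.1 to 105 CPM on day 13 and 23.1 to 30.1 CPM on day 5. *FGFR2*, an FGF receptor, fell by 1.11 and *FGF18* by 2.76. Of 39 genes for FGF, EGF, HGF and VEGF signalling tested, 9 were higher and 6 lower, with a median of 0.03. The share called, 38.5%, was near the 37.4% over all genes.

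Transcription factors and morphogens of the uterus were divided. *IHH*, Indian hedgehog, a progesterone-responsive signal from epithelium to stroma in mice, fell by 1.44 on the log2 scale, with 25 to 60.3 CPM on day 13 and 69.6 to 143 CPM on day 5. *KLF5*, an epithelial zinc finger factor, rose by 1.17, and *STAT3*, the effector of LIF and IL6 signalling, by 0.52. *STAT3* stood at 190 to 244 CPM on day 13 and 139 to 158 CPM on day 5. *FOXA2*, a factor of uterine glands, passed at 0.91 (adjusted p = 0.0358) and was lost without any of 5-140, 4-1314, 8-275, 1-315, 3-175, 4-184 and 7-300 (up to 0.0965). *MSX2*, a homeobox factor, passed at -1.43 and was lost without day 5 library 3-175 (-1.13, adjusted p = 0.0546). *HOXA11* and *NR2F2*, factors of the stroma, did not pass (-0.40, adjusted p = 0.241, and -0.13, adjusted p = 0.525). Of 26 genes tested, 3 were higher and 7 lower, and 5 were higher without day 5 library 8-1350. The share called, 38.5%, was near the 37.4% over all genes.

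Few genes that respond to interferon passed. Interferon tau from the ruminant conceptus raises such genes in the endometrium later in pregnancy. Of 48 tested, 3 were higher and 0 lower, beside 19.4% and 18% over all genes, with a median of 0.12. *ISG15*, a ubiquitin-like modifier, stood at 12.4, 51.5, 12, 60.9 and 8.34 CPM on day 13, against 1.78, 111, 7.83, 2.2 and 31 CPM on day 5 (log2 fold change -0.11 ± 1.04, adjusted p = 0.949). *MX1*, an antiviral GTPase, stood at 188, 429, 155, 536 and 94.6 CPM on day 13, against 38.9, 785, 99.1, 54.8 and 453 CPM on day 5 (-0.05 ± 0.81, adjusted p = 0.969). For both genes libraries 4-1314 and 6-203 of day 13 and 1-315 and 7-300 of day 5 were the high ones of their group. The spread within a day was wide: the 95% intervals were -2.39 to 2.18 for *ISG15* and -1.83 to 1.73 for *MX1*. Without day 5 library 1-315 the log2 fold changes were 1.42 and 0.77, and both signs also turned without 5-140, 5-167 or 8-275. The count of higher genes was 5 without 1-315. Those that rose included *IRF2*, which can repress interferon responses, by 0.48, and *LGALS3BP*, a secreted galectin ligand.

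Few genes of antigen presentation passed. Of 19 genes of MHC class II and antigen presentation, 1 was higher and 0 lower, and 2 were lower without day 5 library 8-1350. *CD74*, the invariant chain, stood at 286 to 373 CPM on day 13 and 173 to 531 CPM on day 5 (-0.17, adjusted p = 0.613), and *BOLA-DRA*, the class II alpha chain, did not pass either (-0.15, adjusted p = 0.682). The 1 higher gene, the peptide transporter *TAP2* (0.49, adjusted p = 0.0327), missed the threshold without any of 5-140, 4-1314, 6-203, 8-1350, 1-315, 4-184 and 7-300 (adjusted p up to 0.0938).

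Several cytokine genes known from epithelia rose. *TSLP*, thymic stromal lymphopoietin, stood at 15.8, 18.5, 16.1, 20.2 and 14.2 CPM on day 13, against 3.86, 3.41, 3.65, 4.25 and 5.17 CPM on day 5 (log2 fold change 2.05 ± 0.16, adjusted p = 2.2e-05). *IL33*, an alarmin of barrier cells, rose by 1.25 and *IL15*, a growth factor of NK cells, by 1.12. *IL6R*, the interleukin 6 receptor, rose by 2.07, with 272 to 670 CPM on day 13 and 83.4 to 133 CPM on day 5. Chemokines fell: *CXCL5*, which attracts neutrophils, by 4.27 (3.56 without day 5 library 3-175) and *CCL28*, a mucosal chemokine, by 1.87. Of 35 genes tested, 6 were higher and 9 lower (42.9% called, beside 37.4% over all genes), with a median of -0.08.

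Mucosal defence genes moved in both directions. *BPIFB1*, a secreted airway protein of the BPI fold, rose by 2.04 on the log2 scale, with 81.4 to 207 CPM on day 13 and 9.31 to 58.5 CPM on day 5. *CD55*, which shields cells from complement, rose by 1.37, with 99.6 to 135 CPM on day 13 and 31.6 to 50.3 CPM on day 5. *TFF3*, a trefoil peptide that is packed with mucins, fell by 3.12, with 1.2 to 3.6 CPM on day 13 and 16.8 to 27.9 CPM on day 5. *DMBT1*, a mucosal scavenger protein, fell by 3.70, and by 4.98 without day 13 library 6-203. Of 20 genes tested, 4 were higher and 6 lower (50% called, beside 37.4% over all genes), with a median of -0.24.

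The markers of cell types give the setting of these changes. In the epithelial list 5 of 10 were higher and 1 lower. *EPCAM*, an epithelial adhesion molecule, rose by 1.48 on the log2 scale, with 327 to 621 CPM on day 13 and 135 to 200 CPM on day 5. The tight junction genes *CLDN3* and *CLDN4* rose by 1.55 and 3.22, *CLDN4* with 108 to 176 CPM on day 13 and 11 to 23.9 CPM on day 5. *KRT19*, an epithelial keratin, fell by 1.43 with no overlap, at 41.4 to 45.5 CPM on day 13 and 94.1 to 139 CPM on day 5. In the smooth muscle list 3 of 8 were lower, among them *CNN1*, calponin, which fell by 1.88. That count rests on single libraries: it was 1 without any of 5-140, 4-1314 and 6-203, 2 without 8-1350, 0 with the small RNA covariate (*CNN1* at adjusted p = 0.0997) and 1 with the depth covariate. The day 13 to day 5 ratio of the summed smooth muscle level was 0.445, and 0.385 to 0.818 with each library left out, the highest without 8-1350. Of 6 endothelial markers 2 were higher (1 without any of 5-140, 4-1314, 6-203 and 4-184), with *TEK*, the angiopoietin receptor, at 0.62.

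Immune markers moved little or in few libraries. *CD8A*, of cytotoxic T cells, fell by 0.96 and was the 1 of 6 T and NK cell markers that passed. None of the macrophage and dendritic cell markers tested passed, with *CD163* at -0.65 (adjusted p = 0.113; -0.90 and 0.0385 without day 13 library 6-203). *IGJ*, the joining chain of secreted antibodies, stood at 13.7, 23.2, 259, 157 and 15.2 CPM on day 13, against 4.88, 11.1, 31.1, 7.15 and 16.6 CPM on day 5. The 2 high libraries were 5-167 and 6-203, and the call (2.70, adjusted p = 0.0336) fell away without 5-167 (1.89, adjusted p = 0.0883), 6-203, 8-1350, 1-315, 4-184 or 7-300. *DNAH5*, a motor protein of cilia, passed at 1.11, and just missed the threshold without day 13 library 4-1314 (adjusted p = 0.0501).

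Markers of the conceptus were at or near 0. *PAG11* and *CSH2* had no reads in any of the 10 libraries, and the 5 trophoblast entries in the table together reached 1.91 to 4.76 CPM on day 13 and 2.54 to 5.12 CPM on day 5. *IFNT2*, listed as an interferon tau gene of a family with many near-identical copies, was higher, with 0.81 to 2.06 CPM on day 13 and 0.284 to 0.757 CPM on day 5 (log2 fold change 1.68, adjusted p = 0.00404). *PAG1* was lower (-1.18, adjusted p = 0.0249; up to 0.0594 without 4-1314, 1-315 or 3-175), but this symbol is also used for an adaptor protein of lymphocytes.

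The other 2 days of the ipsilateral horn place the change in time. For each gene that passed, the median of the 5 day 7 libraries was compared on the log2 scale with the medians of days 5 and 13. Of the genes lower on day 13, 51.5% had a day 7 median nearer to day 13 than to day 5, and of the genes higher on day 13, 42.3%. Day 16 medians were nearer to day 13 for 88.7% of the lower and 87.4% of the higher genes.

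The lists differed in when they fell. For mitosis and the cell cycle, 25 of the 27 lower members were still nearer to day 5 on day 7, and so were 25 of the 28 lower folding genes. For collagens and matrix, 23 of the 29 lower members were already nearer to day 13 on day 7, as were 10 of 14 for WNT signalling. *MKI67* had medians of 78.4, 52.1, 2.63 and 4.07 CPM on days 5, 7, 13 and 16, and *COL8A1* had 34.2, 2.78, 4.44 and 6.13 CPM. These are medians of groups that share the day 5 and day 13 libraries with the comparison, and no test of timing was run.

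Single genes took other courses over the 4 days. *PGR* had medians of 17.3, 8.5, 3.6 and 6.06 CPM on days 5, 7, 13 and 16. *OXTR* had 61.6, 9.06, 2.03 and 17.1 CPM, so that its lowest median was on day 13 and its day 16 median lay above that of day 7. *CYP26A1* had 0.414, 0.55, 225 and 38.8 CPM, and *PTGS2* had 10, 7.9, 110 and 84.1 CPM. *ANPEP*, lower on day 13 than on day 5, had its highest median on day 7, with 295, 1315, 49.1 and 34.4 CPM. *LTF* showed the same order, with 172, 416, 37.5 and 22.4 CPM, and *TDGF1* peaked on day 7 with 293, 2283, 1166 and 77.2 CPM.

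**Figure D4:**
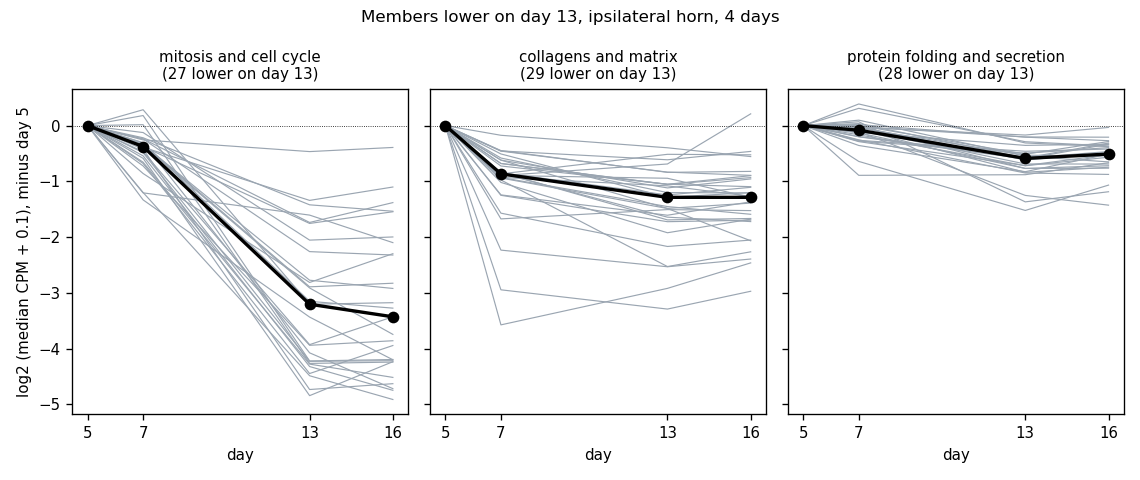
Each grey line is 1 gene that was lower on day 13 than on day 5, drawn as the log2 of its median CPM plus 0.1 in the 5 ipsilateral libraries of days 5, 7, 13 and 16, minus its day 5 value; the black line is the median over the genes. The 27 mitosis genes drop mainly after day 7, the 29 matrix genes mainly before it, and the 28 folding genes by small amounts after it.

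The same days in the contralateral horn gave a similar picture. There 7927 of 18739 genes passed (42.3%), with 3940 higher and 3987 lower on day 13. *PGR* changed by -2.08 ± 0.19 on the log2 scale in the ipsilateral horn and by -2.07 ± 0.25 in the contralateral horn (SE). *OXTR* changed by -4.44 ± 0.61 in the ipsilateral horn and by -4.27 ± 0.47 in the contralateral horn. In the contralateral horn *CYP26A1* changed by 8.51 ± 0.45, *PTGS2* by 3.25 ± 0.31, *MKI67* by -4.69 ± 0.32 and *COL1A1* by -1.64 ± 0.27.

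Whether the change with day differs between the horns was tested directly as an interaction over the 20 libraries of both days. With edgeR 0 of 19682 genes passed, the smallest adjusted p was 0.454, and 808 genes had an unadjusted p below 0.05. With DESeq2 1 gene passed. The data bound the difference only loosely: the half-width of the 95% interval had a median of 0.57 on the log2 scale over all genes and 0.91 over the 2481 genes that changed at least 2-fold with day. For *PGR* the difference, ipsilateral minus contralateral, was -0.06 (95% interval -0.72 to 0.60) and for *OXTR* -0.22 (-1.77 to 1.33). Among the genes named here, *IGFBP1* had a difference of -3.73 (-6.64 to -0.81), *MUC4* of 2.14 (0.47 to 3.81), *DMBT1* of 3.73 (0.76 to 6.69) and *LRP6* of -0.66 (-1.15 to -0.17), and each of them had an adjusted p of 1.

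**Figure D5:**
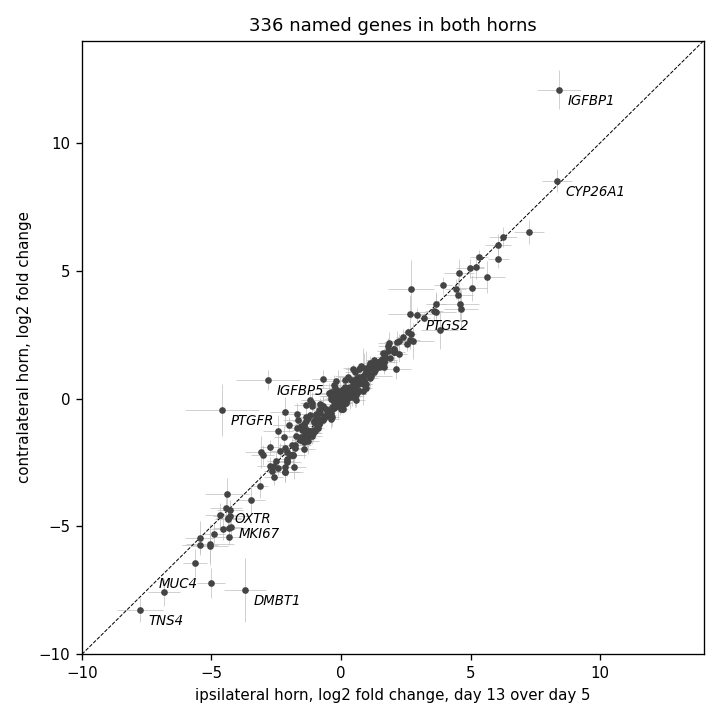
Each point is 1 of 336 genes named by rule, with its log2 fold change, day 13 over day 5, in the ipsilateral horn on the horizontal axis and in the contralateral horn on the vertical axis; bars are standard errors and the dashed line marks equal changes. Most genes lie near the line; *PTGFR* (-4.59 and -0.46) and *IGFBP5* (-2.82 and 0.73), which hold their high ipsilateral day 5 values in library 8-1350, and *IGFBP1* (8.42 and 12.08) lie off it.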

How the data were processed

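Counts of reads per gene were deposited by the authors as 1 table of 40 libraries. Per the submitters' processing notes, reads were checked with FastQC, aligned to the bovine build UMD3.1 with HISAT2 and counted with featureCounts, while their versions are not given in the sources used here. Total RNA of homogenised endometrium was treated with DNase and made into stranded mRNA libraries, per the labels' protocols. The table holds 32671 genes, 27 of them with names turned into dates, and 1 mitochondrial row that entered neither library sizes nor tests. Its column names are the library codes of the labels, and no column was left without a sample (0). No genome of this build was used here, so positions and sequences are not given.

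The comparisons used edgeR 4.0.16 (quasi-likelihood test, TMM scaling, filterByExpr, prior count 0.125, standard error from the F statistic) on the 10 ipsilateral libraries of days 13 and 5. The contralateral libraries were fitted alone, and the interaction was fitted over 20 libraries. CPM values shown are scaled with TMM over all 40 libraries. The fits were also run on simulated counts with known changes in a small set of genes and no outlying library. That run does not bear on error rates where many genes change or 1 library lies apart. DESeq2 1.42.0 and limma-voom (limma 3.58.1) were alternatives, with RLE scaling, no filter, all 20 ipsilateral libraries, a 1.5-fold threshold, covariates and each library left out. Library measures were compared by exact permutation over 252 arrangements.

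The 25 pathway and 15 cell type lists hold 923 entries, of which 908 were in the table. The members and lists were chosen with earlier results of these data known. Named genes came from a rule: the 15 highest and 15 lowest log2 fold changes among genes that passed with an average log2 CPM of at least 2 and no overlap, the 8 largest rises and falls of CPM, up to 4 higher, 4 lower and 3 not passing of each list, and PGR, ESR1, OXTR, ISG15, MX1 and MKI67. It named 337 genes, and the 192 of them given with values in the text were picked after their values were seen. Some other list members are given by name without a value. The p-values set the change between days against the spread between heifers of a group. They do not cover variation beyond the heifers collected for each day.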

Additional observations from a re-analysis of the deposited data

Results flagged for a closer look

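Values of 5 libraries were screened for 1 library far from the other 4, over 426 sets of 5 values (21 library measures and the 192 genes given with values, on each day). A set stands out when the gap of its outermost library is more than 0.71 of the whole range. For normally distributed values this happens by chance in about 1 set in 20. Here 33 sets stood out, or 7.75% of them. CPM values need not be normally distributed and the sets share libraries, so this share is not a test against chance.

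Library 8-1350 of day 5 accounted for 12 of the 33. Its summed smooth muscle markers were 3178 CPM (other day 5 libraries 551 to 662), its lymphatic markers 30.5 CPM (9.34 to 14.3), its luteal cell markers 8.5 CPM (3.52 to 4.63) and its endothelial markers 306 CPM (470 to 501). *IGFBP5* stood at 2925 CPM (28.1 to 98.7), *PTGFR* at 52.2 CPM (0.524 to 3.19), *COL12A1* at 1524 CPM (298 to 575), *ADAMTS15* at 44.7 CPM (16.2 to 18.7), *RPS2* at 2912 CPM (1543 to 1660), *MVK* at 56.3 CPM (25.5 to 32.9), *PGRMC2* at 101 CPM (67.6 to 72.8) and *MEP1B* at 4.3 CPM (1.74 to 2.39). The first 2 genes are the ones whose change with day rested on this library. The part of muscle or other tissue in these values was not tested.

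Library 3-175 of day 5, the deepest, accounted for 6. It had reads on 24313 genes (22807 to 23219 in the other 4), neutrophil markers of 9.81 CPM (1.26 to 1.95), *OXTR* at 143 CPM, *SLC2A3* at 105 CPM, *STC2* at 1 CPM and *TAP2* at 22.5 CPM, each the highest of day 5. Other day 5 libraries stood out for *LY6G6C* (4-184, 2.96 CPM), *FBP1* (4-184, 16.2 CPM), *SEC11C* (4-184, 103 CPM), *COL6A1* (7-300, 2670 CPM), *IRF2* (7-300, 38.8 CPM) and *ISG15* (1-315, 111 CPM).

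On day 13, library 5-167 was low for *GRP* (1161 CPM, others 2194 to 2518) and *CFTR* (69.7 CPM, others 141 to 165) and high for *CDC20* (1.26 CPM, others 0.227 to 0.486). Library 8-275 was high for *LRG1* (1.38 CPM) and *SOSTDC1* (2.26 CPM), 6-203 for *MVK* (23.8 CPM) and *DMBT1* (2.3 CPM), 4-1314 for *COL22A1* (337 CPM) and 5-140 for *WNT11* (35.9 CPM).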

How the results depend on the processing

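The 6995 genes of the day comparison became 8163 with DESeq2, 6977 with limma-voom, 6965 with RLE scaling, 6670 with no filter, 8060 with all 20 ipsilateral libraries and 5329 with log2 depth as a covariate. A test against a 1.5-fold change called 1778 genes, 1033 higher and 745 lower, 1620 of them with an estimate of at least 2-fold. With the share of small RNA reads (microRNA and tRNA genes, log2) as a covariate 4470 passed, with 2403 higher and 2067 lower. This share differs between the days, so it cannot be told apart from day. Leaving out each library gave 5928 to 7081 genes, 2194 to 2782 of them at least 2-fold, and 7078 without 8-1350. The contralateral count of 7927 became 8894 with DESeq2 and 7134 to 7731 with each library left out. The interaction called 0 genes in every edgeR fit, including that with the animal tag as a replicate block (0), and 1 with DESeq2. The tags did not pair the horns: correlations of same-tag deviations from the group mean were -0.308 to 0.498, and 2 of 10 were above 0.1.

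Of the 192 genes given with values in the text 172 passed, and 13 of these lost the call in at least 1 leave-out. The call was lost by 42 in the test against a 1.5-fold change, by 10 with the depth covariate, by 3 with limma-voom, by 1 with DESeq2 and by 50 with the small RNA covariate. Those 50 were *ESR1*, *ESR2*, *GREB1*, *PAQR7*, *PAQR5*, *LRP2*, *TDGF1*, *LRG1*, *SOSTDC1*, *RPS2*, *LTF*, *SLC2A3*, *FBP1*, *SLC7A7*, *SCD*, *FADS1*, *ACSL4*, *MVK*, *MVD*, *ABCA1*, *SLC4A11*, *SLC4A4*, *FXYD4*, *CALB1*, *WNT11*, *DKK1*, *FZD5*, *LIG1*, *PRIM1*, *COL8A1*, *COL12A1*, *LAMA2*, *ADAMTS15*, *SDF2L1*, *DDIT3*, *IGFBP3*, *STC2*, *BMP7*, *FGFR2*, *IHH*, *MSX2*, *IRF2*, *CCL28*, *BPIFB1*, *TAP2*, *VIM*, *CNN1*, *TEK*, *DNAH5* and *IFNT2*. Apart from these, directions turned for genes with wide errors or small estimates. With the small RNA covariate *PTGFR* was at 1.33, *IGFBP5* at 2.54 and *IGJ* at -1.95, and with limma-voom *ISG15* was at 1.10 and *MX1* at 0.59. Leave-outs ranged from -0.60 to 1.42 for *ISG15*, -0.45 to 0.77 for *MX1*, -3.14 to 0.58 for *IGFBP5*, -0.09 to 0.29 for *CCNB1* and -0.05 to 0.17 for *PLK1*. The ratio of day 13 to day 5 ranged from 0.781 to 1.04 for T and NK cell markers, from 0.917 to 1.06 for mast cell markers and from 0.872 to 2.13 for neutrophil markers. The causes were not tested. Depth limits genes with few reads: with 7 reads on day 13 (*TNS4*) the fitted fold depends on the prior count. The 5 heifers a day limit the interaction to the intervals given.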

Other observations

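Some families of gene names, picked after their values were seen and described without a test, moved together on day 13. Of 81 ribosomal protein genes tested, 60 were lower and 0 higher, with a median log2 fold change of -0.55, and their summed level was 34858 ± 2530 CPM on day 13 and 52722 ± 14783 CPM on day 5 (SD, n = 5 each). *RPS2*, of the small subunit, fell by 1.00, with 872 to 982 CPM on day 13 and 1543 to 2912 CPM on day 5. Its highest day 5 library was 8-1350, and its log2 fold change was -0.78 without it. Without that library 58 ribosomal protein genes were lower and 1 higher. Many such genes have near-identical copies, so single members are uncertain. Leaving out each library gave 47 to 66 lower members, and the covariate of small RNA reads left 2.

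Nuclear genes of the respiratory chain fell while reads on the mitochondrial genome rose. Of 37 NADH dehydrogenase subunits 28 were lower and 0 higher, with a median of -0.43, and of 36 subunits of ATP synthase, cytochrome c oxidase and reductase 27 were lower and 1 higher. Their summed levels were 1371 ± 46.6 CPM on day 13 and 1805 ± 164 CPM on day 5 for the first family, and 2885 ± 86.7 CPM on day 13 and 3856 ± 320 CPM on day 5 for the second. The mitochondrial row was 4.09 times as high on day 13. With the small RNA covariate 2 and 6 of these genes were lower.

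Histone genes went the other way: 14 of 20 were higher and 0 lower, with a median of 1.29, at a summed 307 ± 16.6 CPM on day 13 and 175 ± 30.6 CPM on day 5, while the mitosis list fell. With the small RNA covariate, a share that was itself higher on day 13, 6 were higher. The libraries are poly(A)-based, and the part of library preparation in the histone values was not tested. Zinc finger genes moved less together. Of 266 tested, 70 were higher (26.3%) and 23 lower (8.65%), beside 19.4% and 18% over all genes, with a median of 0.1. Uroplakins summed to 14.8 ± 2.78 CPM on day 13 and 230 ± 79 CPM on day 5, but only 2 of the 4 tested were lower. *UPK1B*, given above, held most of the day 5 sum.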
